A study of Mus musculus with 4 samples.

Results

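Cathepsins are proteases of the lysosome, where they cut proteins that the cell has taken up or is recycling. Macrophages are rich in them, and some cathepsins also leave the cell and cut collagen or elastin. In obese adipose tissue, macrophages surround dying adipocytes and digest their remains in lysosomes. Expression of 10 cathepsin genes (Ctsa, Ctsb, Ctsc, Ctsd, Ctsf, Ctsh, Ctsk, Ctsl, Ctss and Ctsz), chosen by gene symbol from 24421 genes, was examined by RNA-seq. The tissue was epididymal adipose tissue, a visceral fat pad of male mice. All 10 were among the 14106 genes tested.

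All mice were wild-type C57BL/6J males, and both groups were fed high-fat diet (HFD). Weight-cycling mice (WC1) began HFD at an age of 8 weeks and ate it for 8 weeks, then had 2 weeks of standard diet and a second HFD period of 6 weeks. High-fat control mice (Ctrl) began at 10 weeks of age and ate HFD without a break for 14 weeks, so that weight cycling is compared with continuous HFD of equal length and both groups had 14 weeks of HFD in total and ended at 24 weeks of age. There were 2 libraries per group, and the labels do not say whether each came from a separate mouse, so the p values measure the spread between these libraries only.

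The libraries held between 61465029 and 90965297 reads, and the cathepsins took between 3523 reads (Ctsf in Ctrl 1) and 965777 reads (Ctsb in Ctrl 2) each. Adipocyte markers such as Adipoq and Plin1 were abundant in every library, and of 5 epididymis markers Lcn5, Crisp1 and Defb15 were at 0 in all 4 libraries. Adam7 was at 0 in both Ctrl libraries and at 3.02 and 0.032 CPM in WC1 1 and WC1 2, and Rnase10 was between 0.095 and 0.351 CPM in every library. The WC1 libraries differed from each other more than the Ctrl libraries did (chi-square per degree of freedom over genes 93.4 against 37.0), and WC1 2 was the lower of the 2 WC1 libraries in CPM in each of the 10 cathepsins. Results that rest on this library are therefore given with and without it. When a WC1 library is left out, the spread in the test comes from the Ctrl pair alone. The p values and calls of such fits hold no spread between WC1 libraries.

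Most cathepsins were lower in weight-cycled mice. In 9 of the 10 genes both WC1 libraries lay below both Ctrl libraries, where 36.6% of all genes tested did so, and in Ctsf both lay above, as in 32.7% of all genes. Ctsk, Ctsh and Ctsc fell at an adjusted p under 0.05 in limma, a linear model fitted over all genes. These were 3 of 10 members, whereas 7.71% of all genes tested were called lower, 10.2% higher and 17.9% in either direction. The median log2 fold change, WC1 minus Ctrl on the log2(CPM + 1) scale, was -0.62 over the 10 cathepsins and -0.02 over all genes. Since whole tissue was sequenced, fewer cells of a type and less RNA per cell cannot be told apart.

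Levels were first compared between the genes in TPM, which corrects for transcript length. Ctsd, an aspartic protease of the lysosome, was the most abundant, with 10740 and 9995 TPM in Ctrl and 7275 and 5362 TPM in WC1. Ctsb, a cysteine protease that works both as an endopeptidase and as an exopeptidase, followed with 4755 and 4517 TPM in Ctrl and 3702 and 2726 TPM in WC1. Together with Ctss and Ctsl they held 85.4% and 85.0% of the summed cathepsin TPM in Ctrl and 84.6% and 84.5% in WC1, so the bulk of the family stayed with the same 4 genes. The order in Ctrl went on with Ctss, Ctsl, Ctsz, Ctsk, Ctsa, Ctsh, Ctsc and Ctsf, from a mean of 3440 TPM down to 50.3 TPM, and no neighbours in this order overlapped. In WC1 the ranges of Ctsl (1860 to 2613 TPM) and Ctss (1783 to 2667 TPM) overlapped, and so did those of Ctsk (322 to 533 TPM) and Ctsa (303 to 444 TPM).

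**Figure D1:**
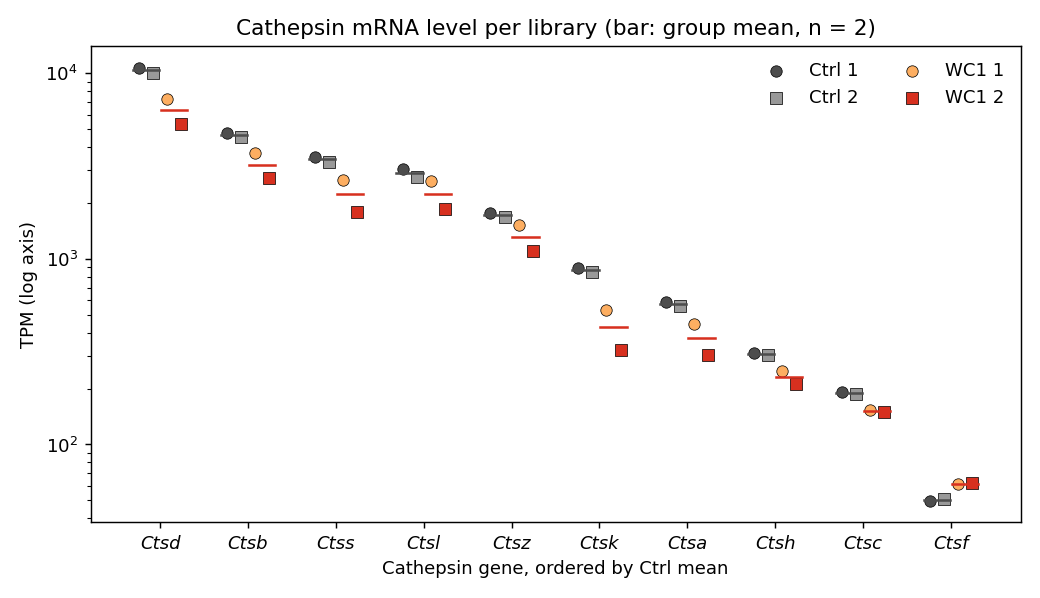
TPM on a log axis for each of the 10 cathepsins in each library, with horizontal bars for the group means (n = 2 libraries per group). Ctsd is highest with 10740 and 9995 TPM in Ctrl, Ctsf is lowest and the only gene whose WC1 points (61.1 and 61.9 TPM) lie above its Ctrl points (49.8 and 50.8 TPM).

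The summed TPM of the family gave the size of the whole pool. It was 25894 and 24210 TPM in Ctrl and 19225 and 13876 TPM in WC1, which is 2.59% and 2.42% of all TPM (Ctrl) against 1.92% and 1.39% (WC1). The group means were 25052 ± 1191 and 16551 ± 3782 TPM (SD, n = 2 per group), a difference of -33.9%, or -0.60 as a log2 ratio. The log2 ratio was -0.38 without WC1 2 and -0.85 without WC1 1. The exact two-sided permutation test gave p = 0.333, the smallest p that 2 libraries against 2 allow. Within the pool the share of Ctsk was 3.45% and 3.50% (Ctrl) against 2.77% and 2.32% (WC1). The share of Ctsd was 41.5% and 41.3% in Ctrl and 37.8% and 38.6% in WC1, and that of Ctsl was 11.8% and 11.4% in Ctrl and 13.6% and 13.4% in WC1.

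Promoter sequence was taken from RefSeq (GRCm38), which gave 9 windows for 8 of the 10 genes, each reaching from 250 bases before a transcription start to 50 bases after it. Many lysosomal genes carry the E-box CACGTG, read by the MITF and TFE factors, and its longer form TCACGTGA. The short form stood in 4 of the 9 windows (Ctsa, Ctsd, Ctsf and Ctsl) and in 7.15% of all 32851 windows. The longer form, which contains the short one, stood in 2 of the 9 (Ctsa and Ctsd) and in 0.974% of all windows. The full palindromic CLEAR motif of 10 bases was in 0 of the 9 and in 0.326% of all windows. GAGGAAGT, the kind of site read by the myeloid ETS factor PU.1, stood in the windows of Ctsc and Ctss and in 3.20% of all windows. Both strands were searched, and a match describes the letters only. The E-box was present in the window of Ctsf, which was not lower, as well as in those of Ctsa, Ctsd and Ctsl. A link between the motif and the differences was not tested. The matches are shown 5′ to 3′ along each gene with the motif in capitals, because they are the letters that these members share.
Ctsd, chr7:142387908-142387937, minus strand: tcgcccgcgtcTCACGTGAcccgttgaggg
Ctsa, chr2:164833757-164833786, plus strand: ctgTCACGTGAtgcagatgcTCACGTGAcc
Ctsl, chr13:64370739-64370768, minus strand: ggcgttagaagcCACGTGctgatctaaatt
Ctsf, chr19:4855074-4855103, plus strand: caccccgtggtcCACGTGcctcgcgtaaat
Ctss, chr3:95526773-95526802, plus strand: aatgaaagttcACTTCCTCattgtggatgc
Ctsc, chr7:88277923-88277952, plus strand: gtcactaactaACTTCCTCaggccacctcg
In Ctss and Ctsc the capitals show the PU.1-type site as its reverse complement, ACTTCCTC. Counted from the RefSeq start, the capitals began at position -99 in Ctsd, at -13 and 5 in Ctsa, at -236 in Ctsl, at -79 in Ctsf, at -2 in Ctss and at -151 in Ctsc. In GENCODE M21, also on GRCm38, the stretches of Ctsf and Ctsc lay upstream of the gene, and those of Ctsd, Ctsa, Ctsl and Ctss overlapped an exon and a UTR of some transcript of the gene. The window of Ctsa with the matches belongs to the second of its start sites. Ctsk and Ctsz had none of the 4 motifs, and Ctsb and Ctsh had no window. The 250 bases before the RefSeq start of Ctsk, chr3:95498960-95499209 on the plus strand, are shown since Ctsk had the largest difference of the family. They lie upstream of the gene in GENCODE M21, which starts it further downstream, at chr3:95499256.
Ctsk: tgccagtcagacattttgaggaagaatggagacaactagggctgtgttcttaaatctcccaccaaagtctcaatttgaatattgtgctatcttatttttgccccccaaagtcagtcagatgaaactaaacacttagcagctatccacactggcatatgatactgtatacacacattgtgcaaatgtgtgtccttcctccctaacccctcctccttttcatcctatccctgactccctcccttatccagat

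Each gene was then compared between the groups in CPM, reads scaled per library by the authors. Ctsk encodes cathepsin K, a collagenase best known from osteoclasts that also cuts elastin. Its level was 740 and 694 CPM in the Ctrl pair, against 405 and 237 CPM in the WC1 pair. Both WC1 libraries were thus well below Ctrl, WC1 2 most of all, and Ctsk fell by 1.21 ± 0.26 in log2 units (SE, limma adjusted p = 0.040). Without WC1 2 the log2 fold change was -0.82, and without WC1 1 it was -1.60. The call was lost without Ctrl 1, without Ctrl 2, without a filter on low values and in the TPM matrix, with adjusted p values of 0.23, 0.17, 0.071 and 0.0503, all at log2 fold changes of at most -1.07. The ratio of Ctsk to Ctsb in TPM was 0.188 and 0.187 (Ctrl) against 0.144 and 0.118 (WC1), and that of Ctsk to Ctss was 0.251 and 0.255 (Ctrl) against 0.200 and 0.180 (WC1). These ratios did not overlap between groups, as in 39 of the 45 pairs of members in CPM, and the difference in fold change between members was not tested.

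Ctsk and Ctss lie next to each other on chromosome 3, at chr3:95499256-95509362 and chr3:95526786-95556403 on the same strand, 17423 bases apart. Ctss encodes cathepsin S, which stays active at neutral pH and trims the invariant chain in antigen-presenting cells. It stood at 2529 and 2334 CPM in the Ctrl pair, against 1737 and 1125 CPM in the WC1 pair. Both WC1 values lay below Ctrl, giving a log2 difference of -0.80 ± 0.24, which did not pass over all genes (limma adjusted p = 0.081). Without WC1 2 the log2 difference was -0.48, and without WC1 1 it was -1.11.

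Cathepsins H, C and Z are cysteine proteases that trim proteins from their ends. Ctsh, an aminopeptidase, stood at 264 and 256 CPM in the Ctrl pair, against 195 and 159 CPM in the WC1 pair, and it fell by 0.56 ± 0.11 in log2 units (limma adjusted p = 0.036). Ctsc, a dipeptidyl peptidase that activates several serine proteases of mast cells and lymphocytes, stood at 247 and 240 CPM in the Ctrl pair, against 183 and 171 CPM in the WC1 pair. It fell by 0.46 ± 0.07 (limma adjusted p = 0.024), the smallest error among the 9 lower genes, and its WC1 libraries were close together. Ctsz, a carboxypeptidase, stood at 1282 and 1214 CPM in the Ctrl pair, against 1020 and 712 CPM in the WC1 pair, with no overlap, and its log2 difference of -0.55 ± 0.20 did not pass (limma adjusted p = 0.11). Without WC1 1 Ctsz was at -0.81 and without WC1 2 at -0.29, so the size of its difference rested mostly on WC1 2. The calls of Ctsh and Ctsc were lost without Ctrl 1 (limma adjusted p = 0.24 and 0.22) and without Ctrl 2 (0.18 and 0.16), and that of Ctsh also without a filter (0.061) and in the TPM matrix (0.053).

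The remaining lower genes, Ctsd, Ctsb, Ctsl and Ctsa, did not pass over all genes. Ctsd stood at 10981 and 10119 CPM in the Ctrl pair, against 6820 and 4870 CPM in the WC1 pair, giving a log2 difference of -0.87 ± 0.32 (limma adjusted p = 0.12). Ctsb stood at 11800 and 11099 CPM in the Ctrl pair, against 8425 and 6008 CPM in the WC1 pair, giving a log2 difference of -0.69 ± 0.34 (limma adjusted p = 0.20). In both genes the groups were well apart and the WC1 libraries differed from each other by more than the Ctrl libraries did. Ctsl, an endopeptidase of the papain family that works in lysosomes of most cells, stood at 3143 and 2810 CPM in the Ctrl pair, against 2471 and 1704 CPM in the WC1 pair, giving a log2 difference of -0.53 ± 0.24 (limma adjusted p = 0.17). Its 95% interval ran from -1.14 to 0.07, and that of Ctsb from -1.55 to 0.18, and both include 0. Ctsa is a serine carboxypeptidase that also shields the lysosomal enzymes Neu1 and Glb1 from breakdown. It stood at 1020 and 952 CPM in the Ctrl pair, against 704 and 469 CPM in the WC1 pair, giving a log2 difference of -0.78 ± 0.21 (limma adjusted p = 0.062).

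Without WC1 1 the values were -1.11 for Ctsd, -0.93 for Ctsb, -0.80 for Ctsl and -1.07 for Ctsa (limma adjusted p between 0.00091 and 0.012). Without WC1 2 they were -0.63, -0.44, -0.27 and -0.49, of which Ctsa passed (limma adjusted p = 0.019). The number of cathepsins called lower was thus 9 without WC1 1, where 19.5% of all genes were, and 5 without WC1 2, where 8.73% were. Without Ctrl 1 and without Ctrl 2 the number was 0 in limma, with 3 members at an unadjusted p under 0.05 in each case, where 18.6% and 22.1% of all genes were. On recovered reads, 3 members were called lower by edgeR and 9 by DESeq2, where 7.14% and 12.3% of all genes were. In the TPM matrix 1 was (Ctsc), against 4.13% of all genes, and with the replicate number as a block 5 were, against 10.6%. The direction of the 9 lower genes was the same in all 13 alternative settings.

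Ctsf was the exception. It encodes cathepsin F, a papain-family protease with a long propeptide, and it was the least abundant of the 10. Its level was 51.5 and 52.0 CPM in the Ctrl pair, against 57.9 and 56.9 CPM in the WC1 pair. Both WC1 libraries lay above Ctrl and close together, giving a log2 difference of 0.15 ± 0.06 that did not pass (limma adjusted p = 0.17, 95% interval -0.02 to 0.31). In the TPM matrix, where the median of all genes lay 0.12 higher than in CPM, the log2 fold change of Ctsf was 0.28, or 0.18 above the median of all genes, with a limma adjusted p of 0.041 (2 libraries per group).

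**Figure D2:**
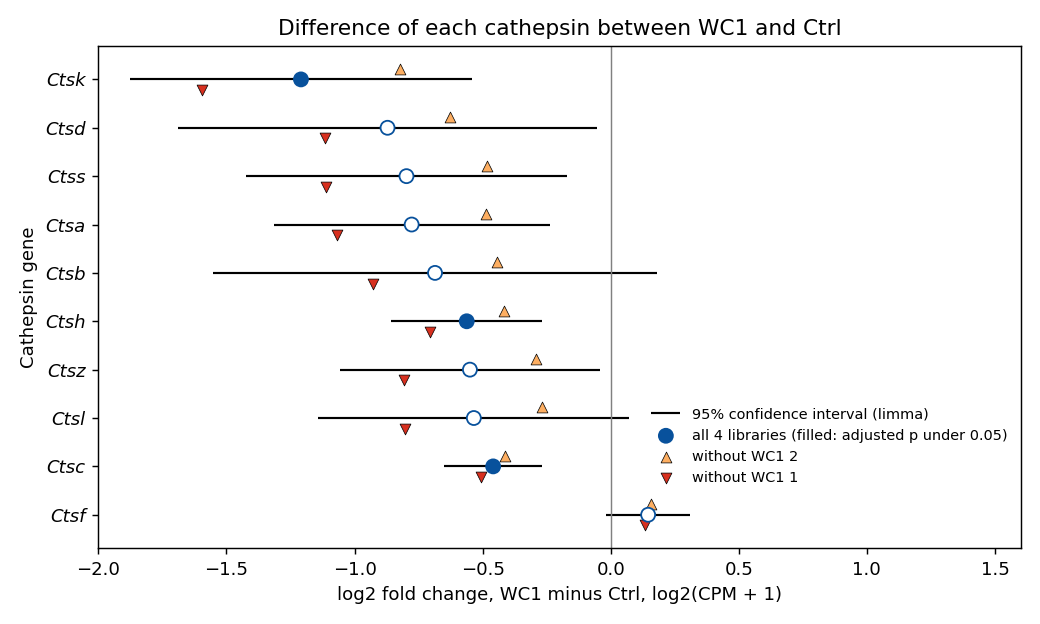
The log2 fold change of each cathepsin (WC1 minus Ctrl, log2(CPM + 1)) with its 95% confidence interval from limma, filled where the adjusted p was under 0.05, and the values without WC1 1 and without WC1 2 as triangles. Ctsk, Ctsh and Ctsc are filled, and in the 9 lower genes the value without WC1 1 (-1.60 for Ctsk) lies further from 0 than the value without WC1 2 (-0.82 for Ctsk).

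Most macrophage markers were lower too. Of 12 markers, which include Adgre1 and Cd68, 5 were called lower (Itgam, Mrc1, Mertk, Lyz2 and Cd14, 0 to 11 when 1 library was left out), and both WC1 libraries lay below Ctrl in 10, where 7.71% of all genes were called lower and 36.6% lay below. Cd163 lay higher in both WC1 libraries, with 23.6 and 26.3 CPM (Ctrl) against 29.5 and 35.4 CPM (WC1), and did not pass (limma adjusted p = 0.091), and the groups overlapped in Fcgr1. Their summed level was 11688 and 10614 CPM in the Ctrl pair, against 6839 and 4736 CPM in the WC1 pair, and none of them was at 0. WC1 2 was again the lowest library. Against the Ctrl mean the macrophage sum was 61.3% and 42.5% in WC1 and the cathepsin sum 71.2% and 50.2%. Lyz2 made up between 42.0% and 53.0% of the macrophage sum, and the geometric mean of the 12 markers, which gives each the same weight, was 74.3% and 54.5% of Ctrl in WC1.

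Each cathepsin was also divided by the macrophage level of its own library and set against the Ctrl mean of that ratio. Ctsk was at 92.0% and 77.6% in WC1 with the sum and at 76.0% and 60.5% with the geometric mean, so it lay below both measures in both WC1 libraries. The 12 markers themselves ranged in log2 fold change from -1.25 (Lyz2) to 0.36 (Cd163), and Ctsk at -1.21 lay within that range. Ctsd was at 105% and 109% with the sum but at 87.0% and 84.7% with the geometric mean, and Ctss and Ctsa crossed 100% in the same way. Ctsb was at 120% and 123% with the sum and at 99.1% and 96.3% with the geometric mean. Ctsl was at 135% in both WC1 libraries with the sum and at 112% and 105% with the geometric mean, and Ctsz was at 133% and 134%, and at 110% and 105%. Ctsh was at 122% and 144% with the sum and at 101% and 112% with the geometric mean. Ctsc was at 122% and 165% with the sum and at 101% and 129% with the geometric mean, and Ctsf at 182% and 258%, and at 151% and 201%. The part of macrophage content in the cathepsin differences was not tested.

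**Figure D3:**
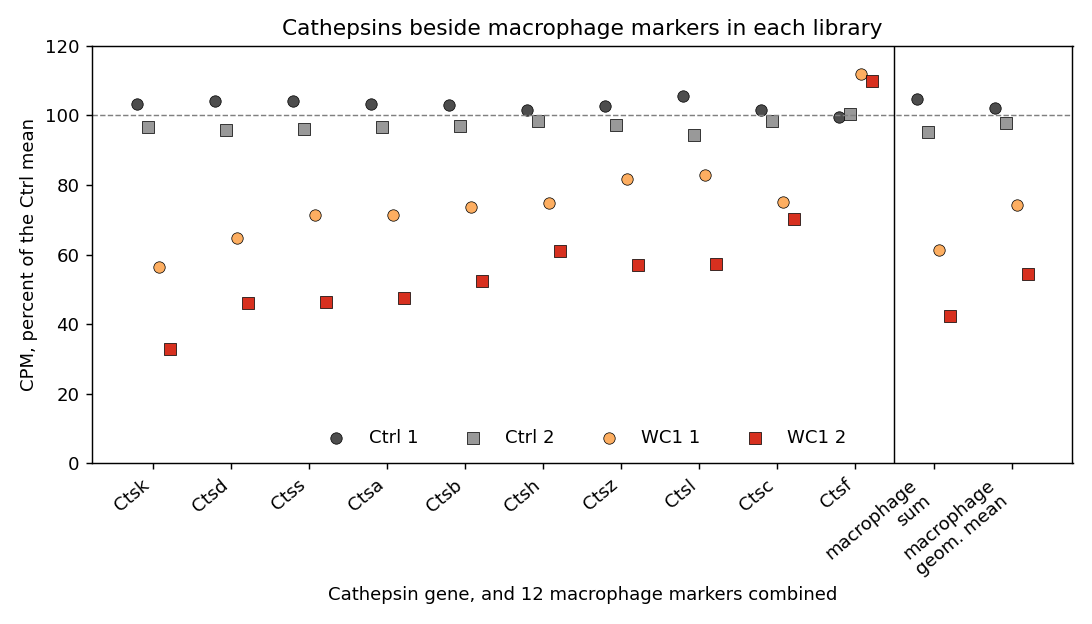
CPM of each cathepsin in each library as a percentage of its Ctrl mean, beside the summed level and the geometric mean of 12 macrophage markers on the right. WC1 2 lies at 42.5% for the macrophage sum and 54.5% for the geometric mean, and the cathepsins other than Ctsf lie below 100% in both WC1 libraries.

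Markers of other cells changed as well, against a background of 10.2% of all genes called higher and 7.71% called lower. Adipocyte markers summed to 9631 and 10754 CPM in the Ctrl pair, against 17291 and 22193 CPM in the WC1 pair, with 5 of 7 called higher, and all 4 endothelial markers, such as Pecam1 and Cdh5, were called higher. Fibroblast markers, of interest for Ctsk, summed to 9351 and 9046 CPM in the Ctrl pair, against 8211 and 6386 CPM in the WC1 pair, and 3 of 8 were called lower. Mast cell markers summed to 541 and 601 CPM in the Ctrl pair, against 82.0 and 64.4 CPM in the WC1 pair, with 4 of 5 called lower. B cell markers reached 26.4 CPM in WC1 2 and at most 7.24 CPM elsewhere, with 1 of 4 called higher. Dendritic cell markers had 1 of 5 called in each direction, neutrophil and skeletal muscle markers had their 1 tested gene each (S100a8 and Acta1) called higher, and none of the 6 T and NK cell markers or the 3 mesothelial markers was called in limma. Of these 9, 1 had an unadjusted p under 0.05 in limma, and edgeR and DESeq2 each called 0, while limma called 2 without WC1 1 and 1 without WC1 2, in fits that called 36.7% and 18.8% of all genes. Among markers too low to test, S100a9 was lower in both WC1 libraries (0.658 and 0.356 against 0.0983 and 0.159 CPM), and Ckm was at most 0.205 CPM. None of the 5 epididymis markers was tested, and their sum was at most 3.24 CPM. The part of these cells in the cathepsin differences was not tested.

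The genes that work with cathepsins were examined as lists, given by their counts. Across 13 other cathepsin genes, 9 were at 0 in all libraries, where 3 reads, the limit that a count of 0 allows, equal 0.0345 to 0.0492 CPM. These 9 lie together on chromosome 13, between chr13:60798250 and chr13:61570127, and belong to the rodent group expressed in placenta. Ctso, a widely expressed cysteine protease, stood at 70.7 and 68.2 CPM in the Ctrl pair, against 56.9 and 57.5 CPM in the WC1 pair, and fell by 0.28 ± 0.06 (limma adjusted p = 0.047), a call lost in 7 of 13 alternative settings. Ctsg, of neutrophils and mast cells, and Ctsw, of cytotoxic lymphocytes, were at most 2.05 CPM in every library with limma adjusted p values of 0.15 and 0.77. Of 7 other lysosomal proteases, 2 were called lower, where 7.71% of all genes were. Dpp7 fell by 1.01 ± 0.13 and Lgmn by 0.80 ± 0.19 (limma adjusted p = 0.017 and 0.049). Lgmn encodes legumain, which processes several cathepsins into chains. Its level was 1428 and 1322 CPM in the Ctrl pair, against 935 and 665 CPM in the WC1 pair. Napsa, at 0.41 ± 0.11, lay higher in both WC1 libraries and did not pass (0.059).

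Of 8 tested inhibitors of cathepsins, 7 had a negative log2 fold change and 1 a positive one, none of them with overlapping groups, where 36.6% of all genes lay lower and 32.7% higher without overlap. Of the 8, 3 were called lower and 1 higher, where 17.9% of all genes were called. Cst7, or cystatin F, an inhibitor that acts inside immune cells, fell from 1.74 and 1.41 CPM in Ctrl to 0.377 and 0.461 CPM in WC1 (log2 fold change -0.86 ± 0.14, limma adjusted p = 0.024). Kng2, a kininogen, fell by 1.39 ± 0.11 (0.010). Ctla2a, which resembles a cathepsin propeptide, rose from 19.0 and 19.7 CPM to 32.4 and 40.2 CPM (0.87 ± 0.12, limma adjusted p = 0.020), and its close copy Ctla2b fell by 0.41 ± 0.09 (0.042). The Ctla2 genes resemble each other, and the treatment of reads that match both was not stated. Cst3, or cystatin C, held between 66.4% and 72.2% of the summed inhibitor TPM, and its log2 difference in CPM was -0.20 ± 0.12 (limma adjusted p = 0.29). The ratio of summed cathepsin TPM to summed inhibitor TPM was 6.59 and 6.18 (Ctrl) against 5.04 and 4.15 (WC1), without overlap. The cathepsin sum includes the aspartic protease Ctsd, at 37.8% to 41.5% of it, and the serine carboxypeptidase Ctsa. The ratio therefore does not match inhibitors with their targets.

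Of 17 genes for sorting and control of lysosomal enzymes, 15 had a negative log2 fold change, 3 were called lower and 1 higher, so that 4 were called where 17.9% of all genes were. Tfec, a relative of TFEB expressed in macrophages, fell from 17.6 and 18.1 CPM to 5.31 and 3.56 CPM (log2 fold change -1.81 ± 0.18, limma adjusted p = 0.013). Nagpa, which uncovers the mannose 6-phosphate tag that directs cathepsins to the lysosome, fell by 0.87 ± 0.18 (0.037), and the membrane protein Lamp2 fell by 0.53 ± 0.12 (0.044). Sort1, the sorting receptor sortilin, rose by 0.40 ± 0.08 (0.035). Psap, the precursor of the saposins, went from 13382 and 12019 CPM in Ctrl to 8291 and 6215 CPM in WC1 without passing (log2 fold change -0.82 ± 0.34, limma adjusted p = 0.15), and the ratio of Ctsd to Psap in TPM overlapped between groups at 1.08 and 1.11 in Ctrl and 1.08 and 1.03 in WC1. Without WC1 1, 15 of the 17 were called, in a fit that called 36.7% of all genes.

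Substrates and partners differed from list to list. Of 10 genes of the MHC class II pathway, in which Ctss and Ctsl trim the invariant chain, 7 were called higher, where 10.2% of all genes were, and the median log2 fold change was 0.69. Cd74, the invariant chain itself, stood at 1127 and 1231 CPM in the Ctrl pair, against 2089 and 1915 CPM in the WC1 pair and rose by 0.76 ± 0.14 (limma adjusted p = 0.029). Ciita (1.13), the regulator of the class II genes, H2-DMb1 (0.64) and H2-DMa (0.62) rose with the smallest p (limma adjusted p between 0.010 and 0.014). The ratio of Ctss to Cd74 in TPM was 2.10 and 1.78 (Ctrl) against 0.784 and 0.553 (WC1). Of 8 tested granule proteases listed with cathepsin C, 5 were called lower, where 7.71% of all genes were. The list includes the tryptases Tpsb2 and Tpsab1, and activation of each protease by cathepsin C was not tested. Among the 5, Mcpt4 went from 139 and 162 CPM to 18.9 and 13.9 CPM (log2 fold change -3.14 ± 0.16, limma adjusted p = 0.0044). Tpsb2 (-3.28), Cma1 (-3.22), Tpsab1 (-2.05) and Gzmb (-1.21) fell as well, and 3 of these genes are also in the mast cell list above. Among 8 tested matrix substrates, of which 3 were called where 17.9% of all genes were, Sparc (0.98 ± 0.17) and Eln (0.45 ± 0.09) rose and Dcn (-0.60 ± 0.13) fell, with limma adjusted p values of 0.028, 0.035 and 0.038. Without Ctrl 1 or without Ctrl 2 none of the genes in these 7 lists was called in limma, while 21 and 22 of the 60 tested, respectively, had an unadjusted p under 0.05, beside 18.6% and 22.1% of all genes.

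**Figure D4:**
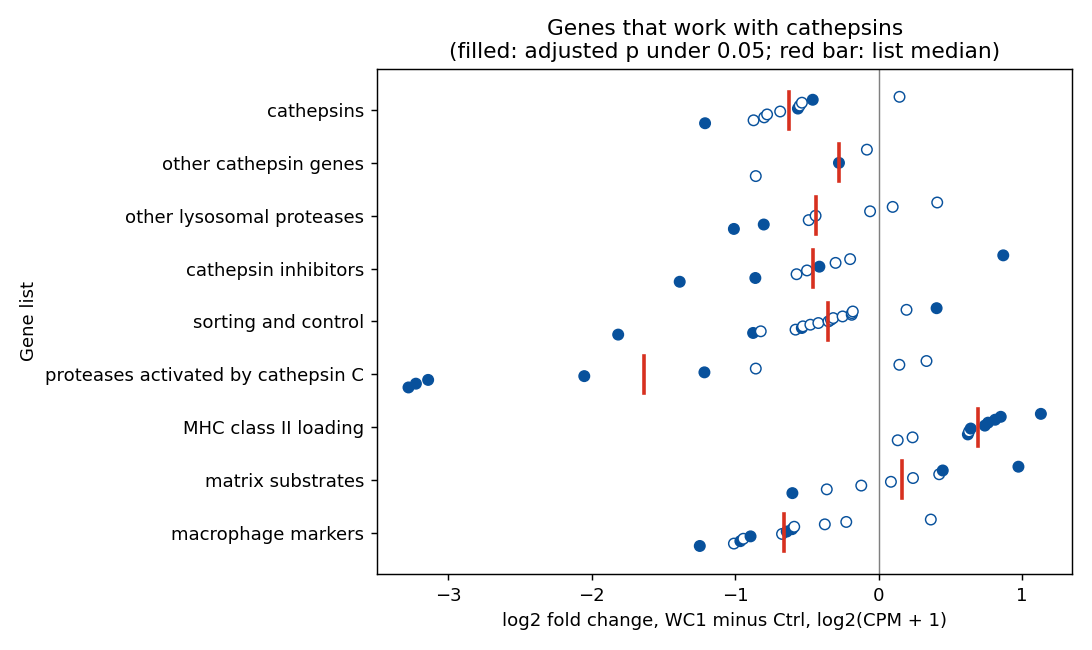
The log2 fold change (WC1 minus Ctrl, log2(CPM + 1)) of each tested gene in the cathepsin family, 7 lists of related genes and the macrophage markers, filled where the limma adjusted p was under 0.05, with the list median as a red bar. The MHC class II list lies to the right of 0 with a median of 0.69, and the cathepsins, at -0.62, lie close to the macrophage markers at -0.66.

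Last, the genes with the profile most like each cathepsin were listed by the root mean square difference of centred log2(CPM + 1) over the 4 libraries, among 9471 genes with a mean of at least 10 CPM. The nearest were Cpe for Ctsk (0.014), Rnh1 for Ctsd (0.017), C1qb for Ctsb (0.0064), Gusb for Ctsl (0.0089), Gla for Ctss (0.015), Npas2 for Ctsa (0.0075), Rab8b for Ctsz (0.0066), Ado for Ctsh (0.011), Pdcd6 for Ctsc (0.0087) and Tbc1d20 for Ctsf (0.0080). The next nearest were Glipr1 and Tlr13 for Ctsk, Fcgr3 and Serpinb6a for Ctsd, Cndp2 and Pira2 for Ctsb, Fcgr4 for Ctsl, Lipa and Fam129b for Ctss, and Gla and Fam129b for Ctsa. For the others they were Pim1 and S1pr2 (Ctsz), Diap1 and Slc9a3r1 (Ctsh), Rps3a1 and Zdhhc12 (Ctsc) and Ndc1 and Lgals1 (Ctsf). Gla was near both Ctsa (0.0081) and Ctss, at 125 and 116 CPM in the Ctrl pair, against 84.9 and 56.2 CPM in the WC1 pair. Within the family the closest pairs were Ctsa with Ctss (0.019) and Ctsl with Ctsz (0.031), and Ctsf lay farthest from Ctsk (0.73). Profiles over 4 libraries are short, and the values describe these libraries only.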

How the data were processed

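Poly(A) RNA of epididymal adipose tissue had been made into directional libraries, 2 per group. The submitters' processing notes name fastp, HISAT2, StringTie and the mm10 build, without versions (counting settings not given in the sources used here). In the first matrix the authors deposited a signal called CPM, reads divided by a rescaled library size. Its values were whole multiples of 1 read in 100% of cases (tolerance 0.01 read), so reads could be recovered. In the second the authors deposited TPM.

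Testing covered genes that reached 0.5 CPM in 2 or more libraries, and was done on log2(CPM + 1) with limma 3.58.1 in R 4.3.3 (limma-trend, two-sided). P values were adjusted by Benjamini-Hochberg over 14106 genes, with a threshold of 0.05. The added 1 makes changes of weakly expressed genes look smaller. Alternatives were pseudocounts of 0.5 and 4, other filters, median-of-ratios scaling, TPM, edgeR 4.0.16 and DESeq2 1.42.0 on recovered reads, a replicate block and leaving out each library. Group SDs are over 2 libraries. The members and lists were chosen with earlier results of these data known. Named genes were all members and, per list, the 3 with the smallest p and all called ones where these were 5 or fewer. Of cell type markers the first 2 of a list were named as examples. Cst3, Psap, Cd74, Ckm and the other macrophage and epididymis markers named lie outside this rule and were chosen after their values were seen. A gene that the rule would name is not reported here. Scripts were tested on simulated data.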

Additional observations from a re-analysis of the deposited data

How the results depend on the processing

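No alternative turned the direction of any of the 10 cathepsins, but the number called depended on the setting. Without a filter on low values 788 genes were called higher and 532 lower, cathepsins called lower numbered 1, and Ctsh (-0.56) and Ctsk (-1.21) did not pass. Related lists then had 0 calls for other cathepsin genes, 1 for other lysosomal proteases, 1 for sorting and control and 0 for matrix substrates. Of all genes, 7.28% were called in that fit. In the TPM matrix 583 genes were called lower, and 77.9% of all calls were higher (57.0% in CPM). There 1 cathepsin was called lower and 1 higher (Ctsf, 0.28), and Ctsh (-0.42) and Ctsk (-1.07) did not pass. Other cathepsin genes had 0 calls in TPM, where 18.7% of all genes were called. DESeq2 called 1736 genes and 9 cathepsins lower, among them Ctsa (-0.73), Ctsb (-0.65), Ctsd (-0.84), Ctsl (-0.50), Ctss (-0.75) and Ctsz (-0.51). In either direction it called 2 other cathepsin genes, 4 other lysosomal proteases and 9 sorting genes, where 27.4% of all genes were called. With edgeR and with median-of-ratios scaling other cathepsin genes had 0 calls, and with a pseudocount of 4 other lysosomal proteases had 1. These fits called 17.6%, 18.2% and 17.5% of all genes, respectively. The cause of these shifts was not tested.

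The replicate numbers were not shown to pair the libraries. Over the 14106 genes tested, the Ctrl 1 minus Ctrl 2 and WC1 1 minus WC1 2 differences correlated at 0.19. With the replicate block, 5 cathepsins were called lower, Ctsa (-0.78) and Ctss (-0.80) included, where 10.6% of all genes were. Other cathepsin genes had 0 calls and sorting genes 8 in either direction, where 23.2% of all genes were called.

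Leaving out 1 library at a time gave 2 to 2424 genes called higher and 4 to 2748 lower, and 0 to 9 cathepsins called lower. Log2 fold changes ranged from -1.07 to -0.49 for Ctsa, -0.93 to -0.44 for Ctsb, -0.51 to -0.41 for Ctsc, -1.11 to -0.63 for Ctsd, -0.71 to -0.42 for Ctsh, -1.60 to -0.82 for Ctsk, -0.80 to -0.27 for Ctsl, -1.11 to -0.48 for Ctss and -0.81 to -0.29 for Ctsz. Calls ranged from 0 to 9 for MHC class II loading, 0 to 6 for inhibitors, 0 to 5 for matrix substrates, 0 to 1 for other cathepsin genes, 0 to 5 for other lysosomal proteases, 0 to 5 for proteases activated by cathepsin C and 0 to 15 for sorting and control. Where a group was left with 1 library, that library was assumed to vary like the other group. Without a WC1 library the spread was that of the Ctrl pair. The Ctrl libraries differed less from each other than the WC1 libraries did (chi-square per degree of freedom 37.0 against 93.4). Whether read depth or the spread between libraries limited the precision was not tested.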
